A study of Mus musculus with 40 samples.

Results

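The 38 genes described here belong to the antioxidant defence that the transcription factor NRF2 helps to control. They were taken by gene symbol from the 54532 genes of the deposited table, and all 38 reached the expression filter for testing. By role they comprise 2 genes of the NRF2 switch (Nfe2l2, which encodes NRF2, and Keap1, its inhibitor), 5 NRF2 target genes of haem, quinone and iron handling, 5 genes of glutathione synthesis and recycling, 9 genes of the thioredoxin system and its peroxiredoxins, 3 glutathione peroxidases, 5 glutathione transferases, 4 genes for superoxide dismutases and catalase, and 5 genes whose enzymes supply NADPH or work in the pentose phosphate pathway.

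The study measured bulk RNA in uteri of prepubertal mice (postnatal day 25) in 40 libraries, 5 in each of 8 groups. At 4 h and again at 24 h after treatment there was a group given doxorubicin with anti-Müllerian hormone (AMH), a group given doxorubicin alone, a group given AMH alone and a control group given PBS or saline. Doxorubicin is an anthracycline that poisons topoisomerase II and was given at 3 mg/kg in 2 weekly doses. AMH, a hormone of the TGF-beta family made by ovarian follicles and the fetal testis, was given at 0.75 mg/kg. The labels number biological replicates without saying whether a replicate is a single mouse. Each p-value of the main fit weighs a difference against the spread between libraries within groups, pooled over all 8 groups. Reads rebuilt from the FPKM values numbered 16251563 to 27391049 per library. The sources used here give no strain or genotype, and do not say which of the 2 doxorubicin doses the harvest times are counted from. In bulk tissue, fewer cells of a type and less RNA per cell cannot be told apart.

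NRF2 is held in the cytoplasm by KEAP1, which marks it for destruction. When oxidants or reactive drugs modify KEAP1, NRF2 accumulates, pairs with small MAF proteins and binds antioxidant response elements near genes such as Nqo1, Hmox1, Gclc, Gclm, Txnrd1 and Srxn1. Glutathione, made by the products of Gclc, Gclm and Gss from cystine that Slc7a11 imports, is used by glutathione peroxidases and transferases and is returned to its reduced form by Gsr. Thioredoxin does the same work for the peroxiredoxins and is recycled by Txnrd1. Both cycles draw on NADPH, much of it from the pentose phosphate pathway, whose first enzyme, glucose-6-phosphate dehydrogenase, is a classical oestrogen-induced enzyme of the rodent uterus. Doxorubicin can cycle between quinone and semiquinone forms and pass electrons to oxygen, which is why antioxidant genes are often examined after this drug.

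The tissue label was checked against marker lists. Most smooth muscle and stromal markers were high in every library (Acta2 at 1011 to 3160 FPKM, a fragment count divided by gene length and sequencing depth, and Col1a1 at 333.4 to 1482 FPKM), and so were most uterine and epithelial markers (Hoxa10 at 41.6 to 129 FPKM, Krt8 at 102 to 700.3 FPKM). Lower ones were Tagln at 3.84 to 12.5 FPKM, Pdgfra at 8.04 to 53.3 FPKM and Foxa2 at 0.20 to 7.61 FPKM. Markers of neighbouring tissue varied between libraries. The oviduct marker Ovgp1 had a median of 1.87 FPKM and reached 789.8 FPKM, and Foxj1 of ciliated cells had a median of 1.06 FPKM and reached 58.5 FPKM. The fat marker Adipoq was listed at 0 in the lowest library and at 75.5 FPKM in the highest, and ovarian markers were low in most libraries and high in a few. Inha had a median of 7.33 FPKM and reached 99.4 FPKM, Hsd3b1 had a median of 0 and reached 55.0 FPKM, and Amh had a median of 0.27 FPKM and reached 11.9 FPKM, while Cyp19a1 and Fshr had medians of 0 and did not pass 1 FPKM.

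Some libraries stood apart by list scores, each score being the mean log2(FPKM + 1) over the tested genes of a list. The oestrogen-responsive score (22 genes, among them Ltf, Lcn2 and C3) exceeded the median over the 40 libraries by more than 1 in AMH library 3 at 24 h and in control libraries 1, 2 and 4 at 24 h, by 1.31, 1.68, 2.45 and 1.44 in that order, and by at most 0.74 in every other library. The oviduct and ciliated cell score was more than 1 above the median in 9 libraries: doxorubicin with AMH library 5 at 4 h and library 4 at 24 h, doxorubicin libraries 3 and 4 at 4 h and 3, 4 and 5 at 24 h, and control libraries 4 and 5 at 4 h. The adipocyte score was more than 2 above the median in doxorubicin library 2 and AMH library 1 at 24 h. The ovary score (5 tested genes) was more than 1 above the median in doxorubicin library 4 at 4 h, doxorubicin library 5, AMH library 3 and control library 4 at 24 h, by 2.38, 2.35, 2.18 and 1.39 in that order, and by at most 0.69 elsewhere. Of these, AMH library 3 and control library 4 also had a high oestrogen-responsive score, and both doxorubicin libraries a high oviduct score. Results are given below with and without these libraries where it matters.

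Of the 38 members 32 had a promoter window of 300 bases, from 250 before to 50 after the transcription start, in RefSeq's annotation of GRCm38.p6. The core of the antioxidant response element was searched as TGACNNNGC on both strands, and a gene was counted if any of its windows matched. It lay in the windows of 9 of these 32 genes (28.1%), against 14.0% of all 27025 genes with a window. By window it lay in 9 of 42 (21.4%), against 12.4% of all 32851 windows. The related AP-1 motif TGANTCA, which can overlap the element, lay in 4 of 32 (12.5%), against 9.0% of all genes. The core was in the windows of 4 of the 8 members that fell with AMH alone at 4 h (Prdx1, G6pdx, Srxn1 and Pgd) and of 5 of the other 24. In Srxn1 and Pgd the match began 28 and 3 bases after the start. The 60 bases around the match are printed below, 5′ to 3′ on the strand of the gene, for 2 genes that fell with AMH at 4 h (Prdx1, a peroxiredoxin, at chr4:116685441-116685500, plus strand, and G6pdx at chrX:74428903-74428962, minus strand), for Txnrd1, which was lower with doxorubicin at 24 h (chr10:82859089-82859148, plus strand), and for Gclm, a textbook NRF2 target that was called in no comparison (chr3:122245398-122245457, plus strand). Capitals mark the match, which in all 4 lies on the opposite strand; in Prdx1 it overlaps an AP-1 match.
Prdx1: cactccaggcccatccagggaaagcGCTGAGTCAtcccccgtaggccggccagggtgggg
G6pdx: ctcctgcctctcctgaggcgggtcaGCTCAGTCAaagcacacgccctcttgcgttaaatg
Txnrd1: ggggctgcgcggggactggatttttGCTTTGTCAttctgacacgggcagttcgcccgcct
Gclm: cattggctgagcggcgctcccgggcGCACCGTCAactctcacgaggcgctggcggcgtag
The capitals begin 133 bases before the start in Prdx1, 57 in G6pdx, 92 in Txnrd1 and 134 in Gclm.

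The levels of the members, compared per kilobase as FPKM, differed widely. The ferritin heavy chain gene Fth1 was the highest at a mean of 962.6 FPKM over all 40 libraries (732.4 to 1346), followed by the ferritin light chain gene Ftl1 at 309.9 and the cytosolic glutathione peroxidase Gpx1 at 247 FPKM. Gstm1 and Prdx1 came next, at 161 and 109 FPKM. At the low end were the classical stress-induced targets Hmox1 (haem oxygenase 1, 7.93 FPKM), Gclm (modifier subunit of the rate-limiting enzyme of glutathione synthesis, 7.85 FPKM) and Nqo1 (a quinone reductase, 6.54 FPKM), and below them Gss (glutathione synthetase) at 4.37 FPKM. Nfe2l2 itself averaged 33.5 FPKM with a narrow range of 26.0 to 43.1, and Keap1 averaged 14.7 FPKM (11.7 to 19.6).

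**Figure D1:**
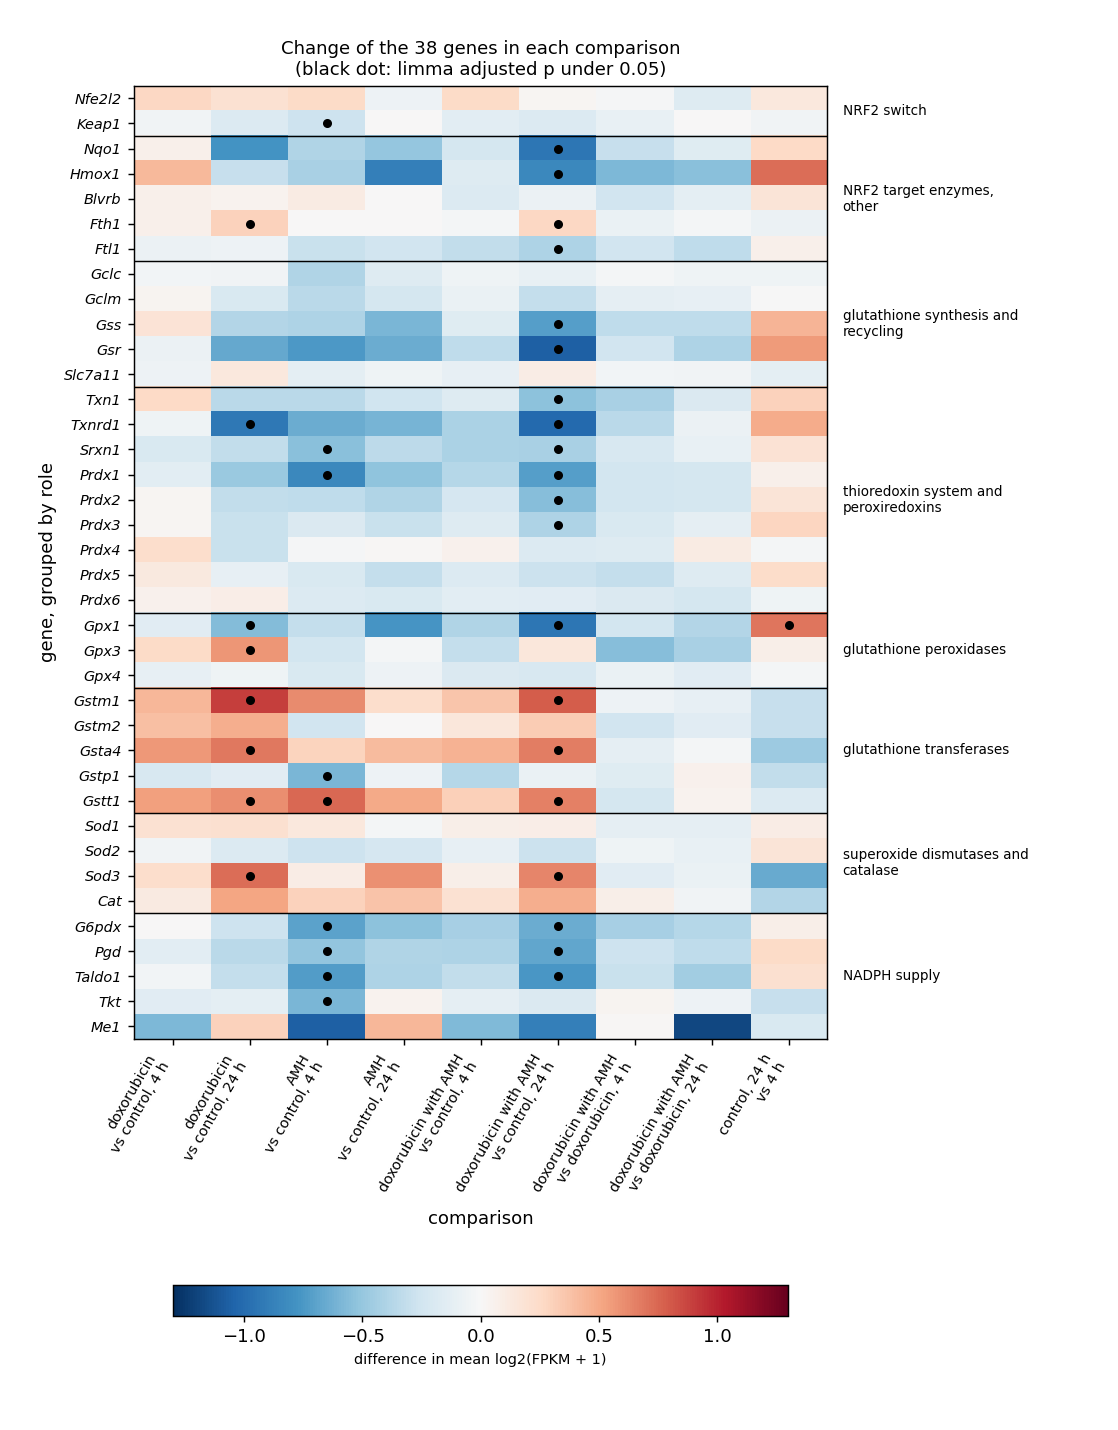
Difference in mean log2(FPKM + 1) of the 38 genes (rows, grouped by role) in 9 comparisons (columns); red is higher and blue lower in the group named first, and a black dot marks a limma adjusted p under 0.05. No dot stands in the columns of doxorubicin against control at 4 h, of doxorubicin with AMH against doxorubicin at either time, of AMH against control at 24 h or of doxorubicin with AMH against control at 4 h, and 20 stand in the column of doxorubicin with AMH against control at 24 h.

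Doxorubicin at 4 h left no called change among the 38 genes. The fit called 0.493% of the 16226 tested genes in this comparison, 0 members at an adjusted p under 0.05, and 4 members at an unadjusted p under 0.05 (Nfe2l2, Gsta4, Gstt1 and Sod1); limma-voom on reads rebuilt from the FPKM values also called 0. The median log2 change of the members was 0.03, against 0.01 over all tested genes, with 22 members higher and 16 lower. For every member the libraries of the 2 groups overlapped. The smallest adjusted p was 0.226, that of Nfe2l2.

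For the classical NRF2 targets the intervals bound the difference. Nqo1 read 6.42, 5.95, 7.05, 16.5 and 5.05 FPKM with doxorubicin, against 6.79, 7.20, 5.15, 5.24 and 13.1 FPKM in controls at 4 h, and 1 library in each group stood far above the rest, in both cases a library of high oviduct score (doxorubicin library 4, control library 5). Its log2 change was 0.07 with a 95% interval of -0.54 to 0.68. Hmox1, which degrades haem, read 7.75, 13.1, 8.92, 9.45 and 8.73 FPKM with doxorubicin, against 7.85, 5.87, 5.78, 8.43 and 6.56 FPKM in controls. Doxorubicin library 1 lay inside the control range and the other 4 above it, and the interval was -0.08 to 0.91 around a log2 change of 0.42 (limma adjusted p = 0.503). The intervals were -0.41 to 0.33 for Gclc, -0.28 to 0.35 for Gclm, -0.60 to 0.46 for the cystine importer Slc7a11, -0.61 to 0.50 for Txnrd1 and -0.49 to 0.09 for sulfiredoxin (Srxn1), which repairs over-oxidised peroxiredoxins. A log2 change of 1 lay outside every one of these intervals. The scale adds 1 to each FPKM, so a doubling of a low gene such as Hmox1 comes to less than 1. A doubling of Hmox1 can therefore not be taken as excluded by its interval. Nfe2l2 itself read 38.1, 36.9, 37.3, 30.3 and 34.7 FPKM with doxorubicin, against 31.5, 30.5, 30.8, 27.3 and 26.0 FPKM in controls, and its groups overlapped through doxorubicin library 4.

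**Figure D2:**
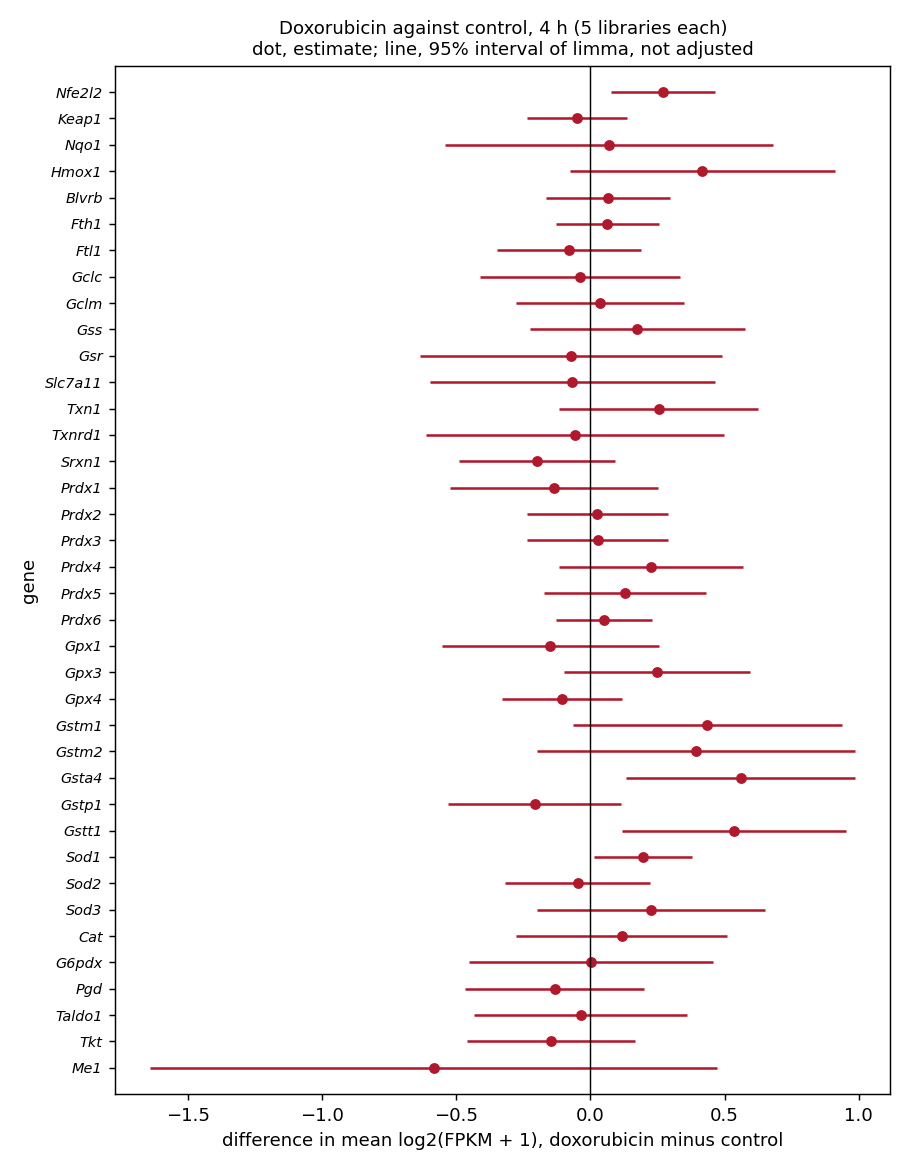
Difference in mean log2(FPKM + 1) between doxorubicin and control uteri at 4 h for each of the 38 genes (dots) with its unadjusted 95% interval (lines), 5 libraries per group. All intervals but those of Nfe2l2, Gsta4, Gstt1 and Sod1 include 0, and Me1 has the widest.

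Among genes outside the 38, 1 of 25 other tested NRF2 targets rose with doxorubicin at 4 h. This was Ephx1, microsomal epoxide hydrolase, at 101 ± 20.9 FPKM with doxorubicin against 52.5 ± 9.14 FPKM without (SD, n = 5 per group; log2 change 0.93, SE 0.21, limma adjusted p = 0.0258), with no overlap between the groups. Of 9 tested genes on a list of p53-induced genes, 3 rose and 0 fell, with a median log2 change of 0.33. The 3 were Cdkn1a, Sesn2 and Trp53inp1, and Cdkn1a encodes the cell cycle inhibitor p21. In this comparison 0.493% of all tested genes were called. Of 32 other glutathione enzymes, 24 other thioredoxin, glutaredoxin and methionine sulfoxide enzymes, 15 other NADPH and pentose phosphate genes, 21 genes of iron handling and ferroptosis and 13 NRF2 partners and regulators, 0 were called at 4 h.

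With doxorubicin at 24 h, 6 members rose and 2 fell. The 8 are 21.1% of the members, against 18.4% of all tested genes called (8.44% higher and 9.95% lower), a share near the background. The genes that rose were 3 of the 5 glutathione transferases (Gstm1, Gsta4 and Gstt1), the secreted enzymes Gpx3 and Sod3, and Fth1. The 2 that fell were Txnrd1 and Gpx1. The median log2 change was -0.13 over the members and -0.01 over all tested genes, and limma-voom also called 8.

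Glutathione transferases join glutathione to reactive compounds. Gstm1 read 151, 223, 214, 217 and 169 FPKM with doxorubicin at 24 h, against 93.2, 50.5, 164, 105 and 143 FPKM in controls (log2 change 0.90, SE 0.25, limma adjusted p = 0.0152). The groups overlapped because control library 3, at 164 FPKM, exceeded doxorubicin library 1. Gsta4, whose enzyme clears the lipid peroxidation product 4-hydroxynonenal, read 48.6, 42.4, 41.3, 51.1 and 30.9 FPKM, against 21.5, 22.7, 33.0, 27.9 and 25.5 FPKM in controls (log2 change 0.69, SE 0.21, limma adjusted p = 0.0239). Only doxorubicin library 5 lay inside the control range. Gstt1 read 28.4, 25.0, 29.2, 18.4 and 19.3 FPKM, against 11.98, 9.90, 25.2, 10.7 and 24.5 FPKM in controls (log2 change 0.61, SE 0.21, limma adjusted p = 0.0378). Here control libraries 3 and 5 lay inside the doxorubicin range, and control libraries 1, 2 and 4 were below every treated library. The other transferases were not called: Gstm2 had a log2 change of 0.47 and Gstp1 of -0.14.

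Gpx3, the secreted glutathione peroxidase of plasma and extracellular fluid, read 79.5, 149, 96.6, 103 and 91.0 FPKM with doxorubicin at 24 h, against 69.8, 76.5, 58.5, 76.2 and 60.9 FPKM in controls (log2 change 0.57, SE 0.17, limma adjusted p = 0.022). All 5 doxorubicin libraries were above all 5 controls, library 2 the highest; that library also had the highest adipocyte score. Fth1, which stores iron, read 1032, 1346, 1058, 997 and 1031 FPKM, against 913, 844, 905, 916 and 839.5 FPKM in controls (log2 change 0.30, SE 0.09, limma adjusted p = 0.0292). These groups did not overlap either, and again library 2 was the highest; groups lay entirely above the controls in 1.92% of all tested genes. Sod3, the extracellular superoxide dismutase, read 12.9, 20.2, 15.1, 9.18 and 12.1 FPKM, against 5.63, 3.90, 14.0, 7.45 and 11.3 FPKM in controls (log2 change 0.73, SE 0.21, limma adjusted p = 0.0186). Control libraries 1, 2 and 4 were the lowest 3 of the 10, while control libraries 3 and 5 lay inside the doxorubicin range.

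Txnrd1, which keeps thioredoxin reduced, read 16.5, 11.9, 16.3, 15.8 and 21.9 FPKM with doxorubicin at 24 h, against 41.9, 59.6, 14.3, 47.6 and 18.8 FPKM in controls (log2 change -0.93, SE 0.27, limma adjusted p = 0.0198). Gpx1 read 328, 209, 269.8, 339 and 207 FPKM, against 608, 714, 238, 346 and 257 FPKM in controls (log2 change -0.56, SE 0.20, limma adjusted p = 0.0454). In both genes control libraries 1, 2 and 4 were above every doxorubicin library, and control libraries 3 and 5 lay within the doxorubicin range. Glutathione reductase, Gsr, showed the same split among controls without a call: 28.2, 17.1, 25.2, 30.5 and 25.3 FPKM with doxorubicin, against 55.8, 83.3, 17.5, 51.6 and 23.2 FPKM in controls (log2 change -0.66, limma adjusted p = 0.0816).

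The calls for doxorubicin at 24 h depended on which libraries were included. Control libraries 1, 2 and 4, which read high for Gpx1, Gsr and Txnrd1, are the ones with the high oestrogen-responsive score: the score was 4.90, 3.86, 4.68, 4.93 and 4.52 in the doxorubicin libraries and 5.88, 6.64, 3.99, 5.63 and 4.31 in the controls. The 24 genes of the oestrogen-responsive list summed to 801 to 1891 FPKM with doxorubicin and 844 to 8326.5 FPKM in controls. Of the 22 tested, 4 fell and 1 rose. The 13 oviduct and ciliated cell markers summed to 102 to 569.7 FPKM with doxorubicin and 77.4 to 147 FPKM in controls (1 of 12 tested rose). The 10 adipocyte markers summed to 62.5 to 1516 FPKM with doxorubicin and 47.9 to 116 FPKM in controls (1 of 8 tested rose). Without those 3 controls 0 members and 0.450% of all tested genes were called. The log2 changes of Txnrd1, Gpx1 and Gstt1 were then -0.02, 0.10 and -0.07. Gpx3 and Fth1 then had log2 changes of 0.76 and 0.32, at limma adjusted p = 0.146 and 0.285. Leaving out 1 library at a time gave 1 call without control library 1 (5.76% of all tested genes called), 1 without control library 2 (6.33%), 4 without control library 4 (6.96%), 18 without control library 3 (34.4%), 18 without control library 5 (26.7%), 2 without doxorubicin library 2 (9.07%) and 3 without doxorubicin library 3 (6.29%). Without the libraries of high oviduct score 4 members were called (11.1% of all tested genes), without the library of high adipocyte score 3 (11.1%) and without those of high ovary score 7 (21.7%), with Gpx1 and Gstt1 at limma adjusted p = 0.0854 and 0.0579. A fit to these 2 groups alone called 0 (0.154% of all tested genes), and one with library weights called 23 (42.4%). The part of these lists in the results was not tested.

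**Figure D3:**
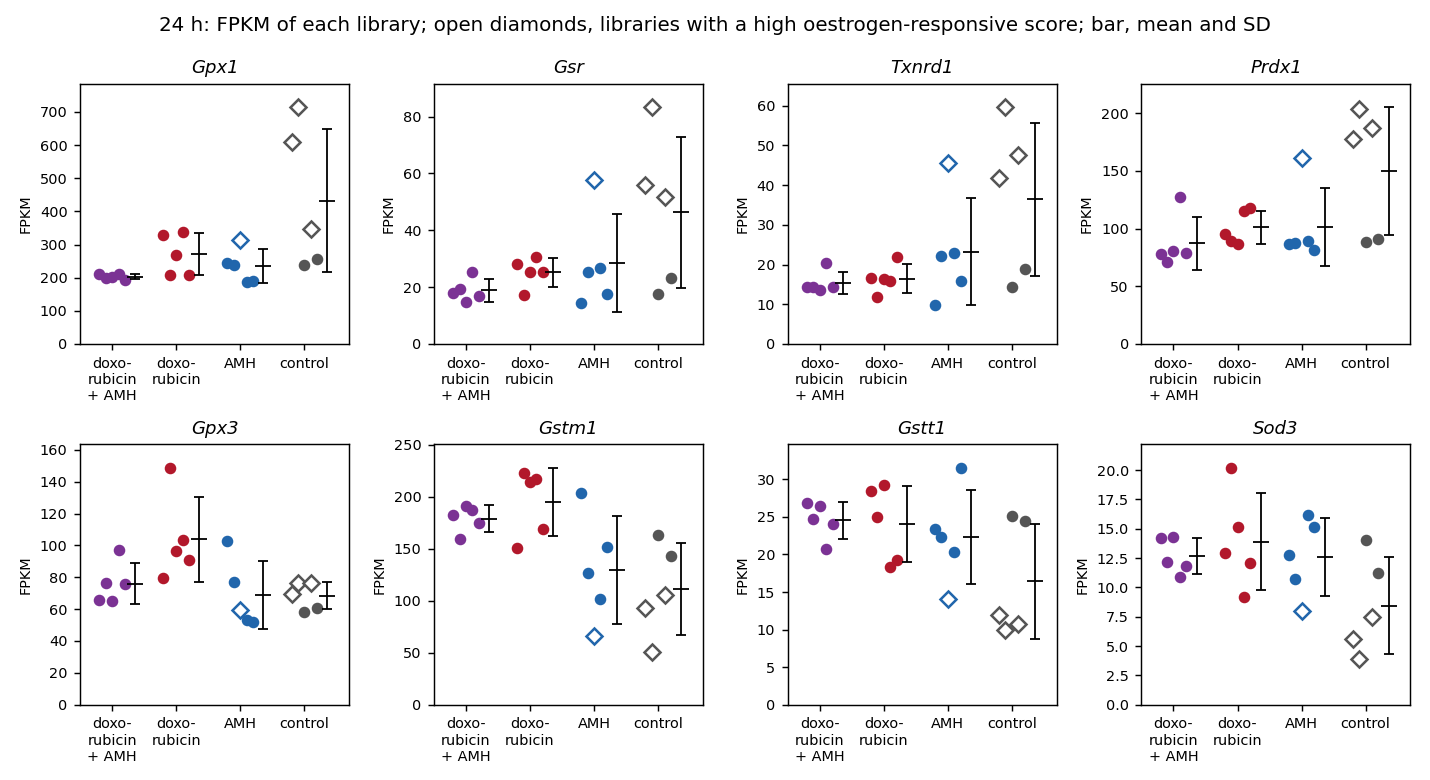
FPKM of each library at 24 h for 8 members, from doxorubicin with AMH to control; bars show the mean and SD of 5 libraries, and open diamonds mark the 4 libraries with a high oestrogen-responsive score. The 4 diamonds are the highest 4 points for Gsr, Txnrd1 and Prdx1 and the lowest 4 for Gstt1 and Sod3, and the other 2 controls lie among the treated uteri for these 5 genes.

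Beyond the 38 genes, lists are read against the 18.4% of all tested genes called for doxorubicin at 24 h (8.44% higher and 9.95% lower). The lists were not counted again without the controls of high oestrogen-responsive score. Of 25 other tested NRF2 targets 8 rose with doxorubicin at 24 h and 0 fell (median log2 change 0.23). Ephx1 was at 131 ± 42.5 FPKM with doxorubicin against 33.3 ± 11.7 FPKM in control uteri (SD, n = 5 per group; log2 change 1.94, SE 0.21, limma adjusted p = 8.72e-07), and its groups did not overlap. The metallothionein gene Mt1 was at 82.8 ± 25.5 FPKM with doxorubicin and 47.0 ± 10.6 FPKM in controls (log2 change 0.78, SE 0.20, limma adjusted p = 0.0114). Of 32 other glutathione enzymes 6 rose and 1 fell, led by Hpgds, the haematopoietic prostaglandin D synthase, at 7.10 ± 2.46 FPKM with doxorubicin and 1.84 ± 1.06 FPKM in controls (log2 change 1.54, SE 0.40, limma adjusted p = 0.0114). Of 24 other thioredoxin, glutaredoxin and methionine sulfoxide enzymes 1 rose and 6 fell. The 1 that rose was Txnip, an inhibitor of thioredoxin, at 470.3 ± 181 FPKM with doxorubicin and 200.4 ± 152 FPKM in controls (log2 change 1.41, SE 0.45, limma adjusted p = 0.0297). The median log2 change of these 24 was -0.15. Of the 9 tested p53-induced genes 5 rose and 0 fell, with a median log2 change of 0.98. Of 12 smooth muscle and stromal markers 8 fell in the same comparison, with a median log2 change of -0.80, and the score of that list was 7.46 ± 0.27 with doxorubicin and 8.12 ± 0.13 in controls; their part in the members' changes was not tested.

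Adding AMH to doxorubicin gave no called change at either time. At 4 h, doxorubicin with AMH against doxorubicin called 0.00616% of tested genes and 0 members, with 6 members at an unadjusted p under 0.05, and limma-voom called 0 members. The members nevertheless leaned one way: 35 of 38 were lower, with a median log2 change of -0.20, against 0.01 over all tested genes. Members are not independent of each other, so that lean is a description. At 24 h, 0.333% of tested genes and 0 members were called, again with 6 members at an unadjusted p under 0.05 and 0 by limma-voom, and 34 of 38 were lower (median log2 change -0.14, against -0.01 over all tested genes). With library weights 6 of the 38 members fell at 24 h, where that fit called 12.8% of all tested genes, a share near the members' own.

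There were 3 members that had every library of doxorubicin with AMH below every doxorubicin library at 4 h, and none of the 3 passed the test. Such groups were found in 0.764% of all tested genes. Hmox1 read 6.68, 5.65, 5.14, 6.42 and 6.13 FPKM with both agents, against 7.75, 13.1, 8.92, 9.45 and 8.73 FPKM with doxorubicin (log2 change -0.58, limma adjusted p = 0.706). Gsr read 19.8, 19.3, 21.3, 22.2 and 23.1 FPKM, against 23.2, 23.4, 28.5, 28.7 and 23.5 FPKM with doxorubicin, where the ranges nearly touched. Gss read 3.52, 3.60, 3.43, 4.21 and 4.16 FPKM, against 4.48, 5.39, 5.66, 5.21 and 4.33 FPKM. Gpx3 had the smallest p of the members, with 37.9, 46.6, 51.8, 56.7 and 72.2 FPKM with both agents, against 67.0, 79.5, 79.7, 82.3 and 75.7 FPKM with doxorubicin at 4 h. Its log2 change was -0.55 (95% interval -0.90 to -0.21, limma adjusted p = 0.59), and 1 library of the combined group, that with the highest oviduct score, lay inside the doxorubicin range. At 24 h Gpx3 read 65.9, 76.4, 65.4, 97.1 and 75.6 FPKM with both agents, against 79.5, 149, 96.6, 103 and 91.0 FPKM with doxorubicin (log2 change -0.43, limma adjusted p = 0.304). Only library 4 of the combined group was inside the doxorubicin range at that time.

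With AMH alone at 4 h, 8 of the 38 members fell and 1 rose, which is 23.7% of the members, against 20.0% of all tested genes called (10.9% lower and 9.13% higher), a share near the background. The genes that fell were 4 of the 5 genes of NADPH supply or the pentose phosphate pathway, together with Prdx1, Srxn1, Gstp1 and Keap1. The 4 were G6pdx, Pgd, Taldo1 and Tkt. Gstt1 was the gene that rose. Without the 2 controls of high oviduct score, G6pdx, Pgd, Srxn1 and Keap1 lost the call. The median log2 change was -0.28 over the members and 0.01 over all tested genes, and limma-voom called 10 members, the same 9 among them.

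Of the pentose phosphate genes, G6pdx, which encodes the first and rate-limiting enzyme, read 33.8, 27.5, 24.6, 25.4 and 21.5 FPKM with AMH at 4 h, against 50.3, 46.1, 36.8, 45.3 and 38.4 FPKM in controls (log2 change -0.69, SE 0.22, limma adjusted p = 0.027). Pgd, the next NADPH-producing step, read 18.4, 16.7, 17.0, 15.6 and 14.7 FPKM, against 27.6, 22.6, 21.1, 26.3 and 22.4 FPKM in controls (log2 change -0.51, SE 0.16, limma adjusted p = 0.0263). Every AMH library of these 2 genes was below every control library. Of the enzymes of the non-oxidative branch, Taldo1 (transaldolase) read 42.1, 42.1, 38.8, 41.2 and 35.9 FPKM with AMH, against 75.0, 75.9, 59.3, 71.1 and 55.8 FPKM in controls (log2 change -0.73, SE 0.20, limma adjusted p = 0.0115). Tkt (transketolase) read 40.4, 36.7, 41.8, 40.8 and 35.0 FPKM, against 64.3, 64.6, 48.3, 61.5 and 58.4 FPKM in controls (log2 change -0.59, SE 0.15, limma adjusted p = 0.00987). Neither gene's groups overlapped, and the AMH libraries of both lay within a narrow band. Me1, malic enzyme, the remaining NADPH source, read 3.32, 3.51, 9.07, 5.02 and 3.84 FPKM with AMH, against 15.4, 12.5, 6.83, 8.74 and 12.4 FPKM in controls, and was not called (log2 change -1.06, SE 0.52, limma adjusted p = 0.138). The G6pdx row overlaps Ikbkg in the table, so reads of the 2 genes could be mixed.

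Peroxiredoxin 1 had the smallest adjusted p of the members. Prdx1 read 74.8, 83.0, 72.2, 71.4 and 70.0 FPKM with AMH at 4 h, against 162, 139.6, 109, 129.8 and 133 FPKM in controls (log2 change -0.84, SE 0.19, limma adjusted p = 0.00606). The groups were well apart, the highest AMH library at 83.0 FPKM and the lowest control at 109 FPKM. Srxn1 read 10.5, 10.1, 8.76, 7.65 and 10.6 FPKM, against 15.1, 13.4, 12.5, 15.5 and 14.8 FPKM in controls (log2 change -0.54, SE 0.14, limma adjusted p = 0.0108). Keap1 read 13.1, 13.5, 13.0, 13.3 and 12.7 FPKM, against 16.9, 18.1, 14.0, 17.4 and 14.0 FPKM in controls (log2 change -0.27, SE 0.09, limma adjusted p = 0.0352). Both had every AMH library below every control library, although by a small margin in Keap1. Gstp1, the pi-class transferase, read 87.5, 128, 67.5, 83.3 and 69.8 FPKM, against 106, 154, 121, 171 and 103 FPKM in controls (log2 change -0.59, SE 0.16, limma adjusted p = 0.0118), and AMH library 2 lay inside the control range. Gstp1 has near-identical neighbours in the genome, so its reads could have been split with other copies.

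Gstt1, a theta-class transferase, moved the other way. It read 29.9, 29.6, 32.6, 27.8 and 28.7 FPKM with AMH at 4 h, against 17.1, 17.2, 14.7, 17.5 and 20.4 FPKM in controls (log2 change 0.75, SE 0.21, limma adjusted p = 0.0128). The AMH libraries lay in a tight band above all controls. Another 7 members had all AMH libraries below all controls without a call: Gclc, Gclm, Gss, Gsr, Txnrd1, Prdx2 and Gpx4. In all, 14 members had AMH libraries entirely below the controls and 1 entirely above, against 13.0% and 11.3% of all tested genes. Gsr was the nearest to the threshold, at 19.1, 16.5, 13.3, 13.9 and 15.4 FPKM with AMH and 31.4, 27.9, 23.7, 27.2 and 24.1 FPKM in controls (log2 change -0.75, limma adjusted p = 0.0523). Gclm read 6.41, 6.71, 6.49, 6.59 and 6.51 FPKM with AMH, against 8.58, 8.82, 8.59, 7.99 and 9.13 FPKM in controls (log2 change -0.35, limma adjusted p = 0.0975), and its AMH libraries lay in a tight band.

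**Figure D4:**
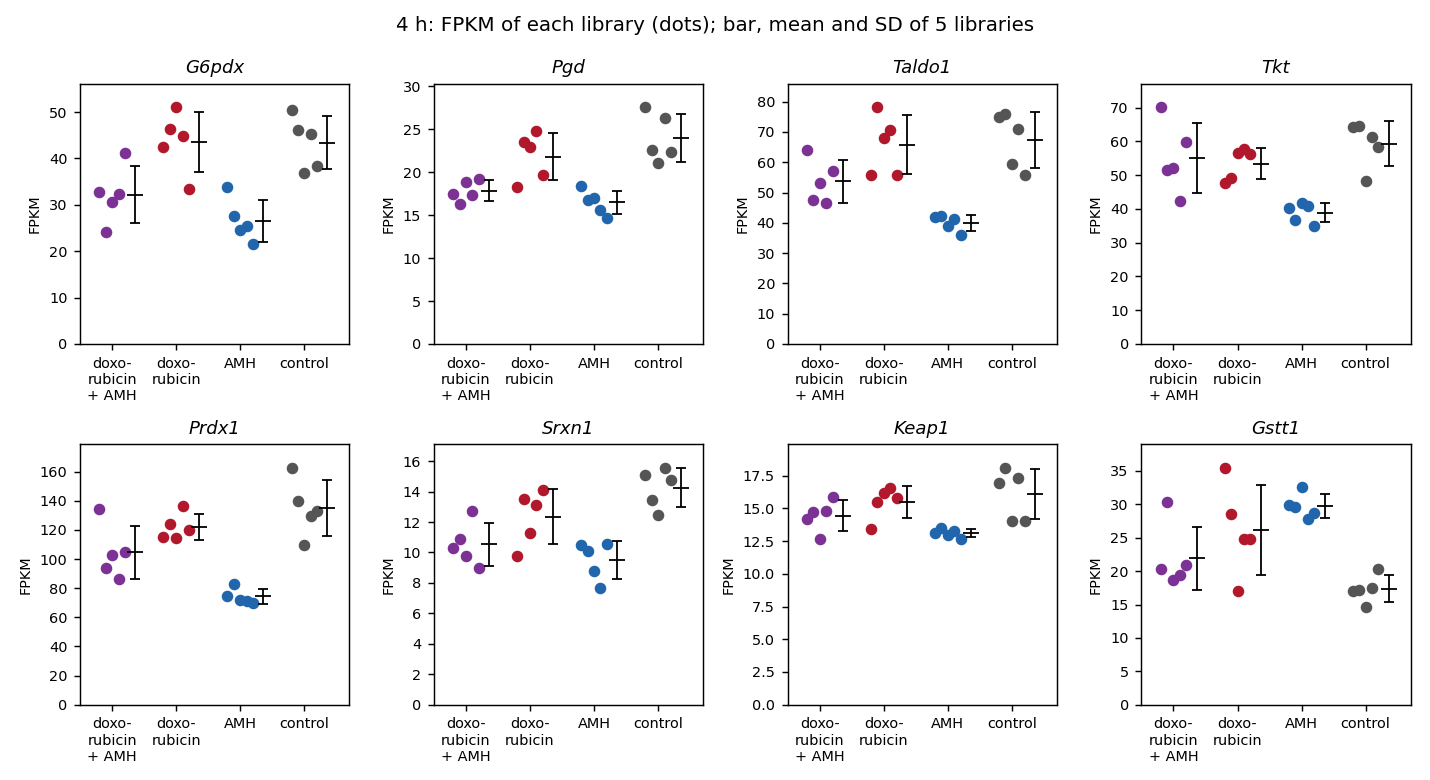
FPKM of each library at 4 h for the 4 pentose phosphate genes, Prdx1, Srxn1, Keap1 and Gstt1, from doxorubicin with AMH to control; bars show the mean and SD of 5 libraries. In 7 of the panels all AMH points lie below all control points, and for Gstt1 all lie above.

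Taking out single libraries left 6 to 10 members called for AMH at 4 h. Keap1 lost its call in 7 of the 10 fits, G6pdx in 6 and Pgd in 4, and each also lost it without a filter on low values. Prdx1, Srxn1, Gstp1, Gstt1, Taldo1 and Tkt kept theirs in all 10. The fit to these 2 groups alone called 24 (4 rose, 20 fell, with 36.3% of all tested genes called). Without the 2 controls of high oviduct score, 6 members were called (13.5% of all tested genes), 5 of them among the 9, and Keap1, Srxn1, G6pdx and Pgd missed the threshold at limma adjusted p = 0.0678, 0.0658, 0.0759 and 0.0982 with log2 changes of -0.29, -0.49, -0.73 and -0.50. The oestrogen-responsive score was 4.04, 3.58, 3.69, 3.38 and 3.48 in the AMH libraries and 4.89, 4.50, 4.41, 4.67 and 4.01 in the controls at 4 h. The 24 genes of its list summed to 588 to 1027 FPKM with AMH and 832 to 1625 FPKM in controls. Of the 22 tested, 4 fell and 0 rose, with a median log2 change of -0.72. Of 12 smooth muscle and stromal markers 4 fell, with a median of -0.35. The part of these lists in the members' changes was not tested.

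Genes around the members are read against the same 20.0% of all tested genes called. Of 15 other NADPH and pentose phosphate genes 7 fell and 1 rose (median log2 change -0.30). Nadk, the cytosolic NAD kinase that makes NADP, was at 28.3 ± 3.16 FPKM with AMH and 42.4 ± 4.59 FPKM in controls (SD, n = 5 each; log2 change -0.57, SE 0.13, limma adjusted p = 0.0069), and the 6-phosphogluconolactonase gene Pgls at 20.8 ± 1.18 and 28.8 ± 1.93 FPKM in the same order (log2 change -0.45, SE 0.11, limma adjusted p = 0.00699). The mitochondrial NAD kinase Nadk2 rose, at 7.67 ± 0.90 FPKM with AMH and 4.61 ± 0.71 FPKM in controls (log2 change 0.63, SE 0.14, limma adjusted p = 0.00545). Mthfd1, a folate enzyme, fell to 11.8 ± 1.71 FPKM with AMH, against 25.1 ± 4.44 FPKM in controls (log2 change -1.02, SE 0.25, limma adjusted p = 0.0072). None of these 4 genes had overlapping groups.

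Of 24 other thioredoxin, glutaredoxin and methionine sulfoxide enzymes 5 fell and 1 rose with AMH at 4 h (median -0.11). Mitochondrial thioredoxin, Txn2, was at 21.6 ± 1.99 FPKM with AMH and 35.97 ± 5.09 FPKM in controls (log2 change -0.71, SE 0.16, limma adjusted p = 0.0063). The thioredoxin inhibitor Txnip was at 495.7 ± 47.3 FPKM with AMH and 155 ± 53.1 FPKM in controls (log2 change 1.73, SE 0.45, limma adjusted p = 0.0098), with no overlap. Among 13 NRF2 partners and regulators 4 rose and 1 fell. Bach1, a haem-sensing repressor that competes with NRF2 at the response element, was at 8.79 ± 0.75 FPKM with AMH and 5.95 ± 0.41 FPKM in controls (log2 change 0.49, SE 0.11, limma adjusted p = 0.00545). Sqstm1, which encodes the autophagy receptor p62 that binds KEAP1, was at 132 ± 7.61 FPKM with AMH and 82.0 ± 4.16 FPKM in controls (log2 change 0.68, SE 0.16, limma adjusted p = 0.0069). Of 25 other NRF2 targets 6 rose and 1 fell. The 1 that fell, the aldose reductase gene Akr1b3, was at 4.96 ± 0.62 FPKM with AMH and 10.9 ± 1.42 FPKM in controls (log2 change -0.99, SE 0.17, limma adjusted p = 0.00112). Mt1 and Ephx1 were among those that rose. Mt1 was at 58.9 ± 9.97 FPKM with AMH and 34.7 ± 6.63 FPKM in controls (log2 change 0.75, SE 0.20, limma adjusted p = 0.0123). Ephx1 was at 87.2 ± 7.47 and 52.5 ± 9.14 FPKM in the same order, without overlap (log2 change 0.74, SE 0.21, limma adjusted p = 0.0147). Of 21 genes of iron handling and ferroptosis 6 fell and 2 rose; the transferrin receptor gene Tfrc was at 4.22 ± 0.38 FPKM with AMH and 14.3 ± 3.99 FPKM in controls (log2 change -1.52, SE 0.39, limma adjusted p = 0.00956).

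With AMH alone at 24 h no member was called, 0.462% of all tested genes were, and 16 members had an unadjusted p under 0.05; limma-voom called 0 members. Of the 38, 26 were lower, with a median log2 change of -0.18, against -0.01 over all tested genes. Gpx1 came closest, at 243, 239, 313, 185 and 189.8 FPKM with AMH and 608, 714, 238, 346 and 257 FPKM in controls (log2 change -0.76, limma adjusted p = 0.0655). The highest AMH value, in library 3, is that of the AMH library with the high oestrogen-responsive score, and the same library was the highest of its group for Gsr, Txnrd1, Prdx1 and G6pdx. G6pdx read 22.4, 28.7, 58.8, 34.5 and 22.1 FPKM with AMH at 24 h, against 55.8, 77.7, 27.7, 58.7 and 27.0 FPKM in controls (limma adjusted p = 0.206). Control libraries 3 and 5 of G6pdx lay inside the range of the other AMH libraries. Without AMH library 3, 14 members were called (13.4% of all tested genes), without control library 3, 13 (11.9%), and without control library 5, 6 (4.26%). Without all 4 libraries of high oestrogen-responsive score 0 were called, without those of high ovary score 1 (2.11% of all tested genes), and with library weights 21 (25.2%). Whether the AMH effect differed between 4 h and 24 h was not tested.

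Doxorubicin with AMH against controls at 4 h called 0.394% of tested genes and 0 members, with 6 members at an unadjusted p under 0.05 and 0 called by limma-voom. The fit to these 2 groups alone called 4, all lower, and 4.72% of all tested genes. Pgd, at 17.5, 16.3, 18.9, 17.4 and 19.2 FPKM with both agents and 27.6, 22.6, 21.1, 26.3 and 22.4 FPKM in controls, had non-overlapping groups (log2 change -0.40, limma adjusted p = 0.214), as had Gsr, Gpx1 and Gpx4; groups lay entirely below the controls in 3.57% of all tested genes. Prdx1 read 134, 93.8, 103, 86.5 and 105 FPKM with both agents at 4 h, and library 1 lay inside the control range given above.

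At 24 h, doxorubicin with AMH against controls had the most calls: 15 members fell and 5 rose. The 20 are 52.6% of the members, against 34.3% of all tested genes called (18.6% lower and 15.7% higher). These controls are the ones that doxorubicin alone was compared with above, so the 2 comparisons share samples. By role, 6 of 9 genes of the thioredoxin system fell, as did 3 of 5 genes of NADPH supply or the pentose phosphate pathway. Also lower were 3 of the 5 targets of haem, quinone and iron handling, 2 of 5 genes of glutathione synthesis and recycling and 1 of 3 glutathione peroxidases. The 5 that rose were Fth1, Gstm1, Gsta4, Gstt1 and Sod3. The median log2 change was -0.24 over the members and -0.00473 over all tested genes, and limma-voom called 21.

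Gpx1 had the smallest adjusted p, at 210.2, 198, 203, 209.9 and 194 FPKM with both agents and 608, 714, 238, 346 and 257 FPKM in controls at 24 h (log2 change -0.94, SE 0.20, limma adjusted p = 0.00115). It is the only member whose combined-treatment libraries all lay below all controls (4.53% of all tested genes did), and they lay in a narrow band. In the thioredoxin system Txnrd1 read 14.4, 14.4, 13.7, 20.3 and 14.4 FPKM with both agents (log2 change -1.01, SE 0.27, limma adjusted p = 0.0062; control values as above). Its substrate thioredoxin, Txn1, read 77.7, 79.9, 68.8, 94.3 and 74.8 FPKM with both agents, against 125, 177, 76.5, 152 and 76.0 FPKM in controls (log2 change -0.53, SE 0.18, limma adjusted p = 0.0239). Srxn1 read 12.2, 10.9, 11.2, 15.3 and 10.6 FPKM, against 19.4, 23.1, 10.4, 19.6 and 12.6 FPKM in controls (log2 change -0.42, SE 0.14, limma adjusted p = 0.0237). In these 3 genes control libraries 1, 2 and 4 were above all treated libraries and control libraries 3 and 5 were not.

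The peroxiredoxins, which reduce hydrogen peroxide, had their highest values in control libraries 1, 2 and 4 as well. Prdx1 read 77.7, 71.2, 80.9, 127 and 78.7 FPKM with both agents at 24 h, against 178, 203, 88.3, 187 and 91.0 FPKM in controls (log2 change -0.71, SE 0.19, limma adjusted p = 0.00604). Prdx2 read 54.2, 52.5, 54.9, 59.3 and 46.2 FPKM, against 95.9, 105, 62.3, 81.0 and 58.9 FPKM in controls (log2 change -0.55, SE 0.13, limma adjusted p = 0.00266). The mitochondrial Prdx3 read 42.4, 44.8, 47.2, 54.6 and 42.3 FPKM, against 72.1, 76.9, 48.0, 68.7 and 46.3 FPKM in controls (log2 change -0.40, SE 0.13, limma adjusted p = 0.0184). In all 3 genes the highest library of the combined group, library 4, was above the lowest control, and that library also had a high oviduct score. Prdx4, Prdx5 and Prdx6 had log2 changes of -0.18, -0.28 and -0.14 and were not called. The Prdx2 row overlaps Junb and Rnaseh2a in the table.

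Among glutathione genes Gsr read 17.8, 19.4, 14.8, 25.3 and 16.9 FPKM with both agents at 24 h, against the control values given above (log2 change -1.06, SE 0.28, limma adjusted p = 0.00499). Gss read 3.35, 3.72, 3.27, 3.88 and 2.82 FPKM, against 7.91, 11.8, 2.84, 8.29 and 3.74 FPKM in controls (log2 change -0.71, SE 0.20, limma adjusted p = 0.00737); its row overlaps Acss2. Control libraries 1, 2 and 4 were again the high ones in both. Of the NRF2 targets outside these cycles, Nqo1 read 3.05, 4.04, 5.34, 3.98 and 4.10 FPKM, against 5.64, 13.8, 4.79, 21.7 and 5.48 FPKM in controls (log2 change -0.93, SE 0.30, limma adjusted p = 0.0177). For Nqo1 only control libraries 2 and 4 stood high, with library 1 beside libraries 3 and 5. Hmox1 read 6.26, 4.21, 5.27, 11.02 and 5.92 FPKM, against 14.2, 21.0, 5.67, 20.9 and 6.46 FPKM in controls (log2 change -0.84, SE 0.24, limma adjusted p = 0.00947). Ftl1 read 291, 311, 214, 286 and 249 FPKM, against 411, 434, 255, 468 and 260.5 FPKM in controls (log2 change -0.40, SE 0.13, limma adjusted p = 0.0194), while Fth1, the other ferritin subunit, read 1144, 1066, 1067, 1042 and 1015 FPKM with both agents and was above all controls (log2 change 0.27, SE 0.09, limma adjusted p = 0.0263). In this fit the 2 ferritin subunits thus had opposite signs in the same libraries. For Ftl1, control libraries 3 and 5 lay inside the treated range, and without control libraries 1, 2 and 4 its log2 change was 0.05.

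In the pentose phosphate pathway G6pdx read 26.1, 23.8, 28.0, 40.2 and 27.6 FPKM with both agents at 24 h, against 55.8, 77.7, 27.7, 58.7 and 27.0 FPKM in controls (log2 change -0.65, SE 0.22, limma adjusted p = 0.0256). Pgd read 15.6, 17.8, 17.2, 21.3 and 16.3 FPKM, against 35.9, 41.4, 18.1, 36.2 and 19.7 FPKM in controls (log2 change -0.68, SE 0.16, limma adjusted p = 0.00317). Taldo1 read 36.5, 45.3, 43.5, 64.5 and 41.1 FPKM, against 100.2, 126, 50.4, 90.7 and 47.9 FPKM in controls (log2 change -0.76, SE 0.20, limma adjusted p = 0.00465). In all 3 control libraries 1, 2 and 4 were the highest, and control libraries 3 and 5 overlapped the treated uteri. Tkt and Me1 were not called, with log2 changes of -0.19 and -0.89.

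Of the 5 transferases 3 rose with both agents at 24 h, as did Sod3. Gstm1 read 183, 159, 191, 188 and 174 FPKM (log2 change 0.79, SE 0.25, limma adjusted p = 0.0154) and Gstt1 26.8, 24.7, 26.5, 20.7 and 24.0 FPKM (log2 change 0.65, SE 0.21, limma adjusted p = 0.0152). Gsta4 read 40.02, 42.0, 50.9, 37.2 and 39.3 FPKM (log2 change 0.67, SE 0.21, limma adjusted p = 0.0155), and was above every control, as Fth1 was (4.20% of all tested genes were). Sod3 read 14.2, 12.2, 14.3, 10.8 and 11.8 FPKM (log2 change 0.64, SE 0.21, limma adjusted p = 0.0193). Their control values stand with the doxorubicin comparison above, and for Gstm1, Gstt1 and Sod3 it was control libraries 1, 2 and 4 that were low. The other transferases, Gstm2 and Gstp1, had log2 changes of 0.33 and -0.08 and were not called.

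The oestrogen-responsive score at 24 h was 3.98, 4.12, 3.64, 4.26 and 3.89 with both agents and 5.88, 6.64, 3.99, 5.63 and 4.31 in controls, and 14 of its 22 genes fell while 0 rose (median log2 change -1.16). Without the 3 controls of high score 0 members and 0.733% of all tested genes were called. In that fit Hmox1, Ftl1, Gss, Txn1, Srxn1, Gstt1 and G6pdx changed sign. Gpx1 then had a log2 change of -0.28 (limma adjusted p = 0.516), Gsr of -0.12 (limma adjusted p = 0.872) and Gsta4 of 0.51 (limma adjusted p = 0.52). Leaving out control library 2 alone left 7 calls (17.9% of all tested genes), control library 1 alone 13 (21.9%) and control library 4 alone 13 (23.4%). The fit to these 2 groups alone called 1 member (Gsta4) and 6.28% of all tested genes. Without the libraries of high ovary score 16 members were called (28.7% of all tested genes), all among the 20, and Ftl1, Txn1, Srxn1 and G6pdx were not. Of 12 smooth muscle and stromal markers 10 fell with both agents at 24 h (median -0.77). The part of these lists in the members' changes was not tested.

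Other lists are read against the 34.3% of all tested genes called in that comparison, near which their shares lie. Of 15 other NADPH and pentose phosphate genes 5 fell and 1 rose, of 24 other thioredoxin, glutaredoxin and methionine sulfoxide enzymes 6 fell and 3 rose, of 32 other glutathione enzymes 5 fell and 5 rose, and of 25 other NRF2 targets 2 fell and 5 rose. Ephx1 was at 107 ± 16.5 FPKM with both agents and 33.3 ± 11.7 FPKM in controls (SD, n = 5 each; log2 change 1.70, SE 0.21, limma adjusted p = 4.03e-06), with no overlap. Hpgds was at 8.70 ± 0.60 FPKM with both agents and 1.84 ± 1.06 FPKM in controls (log2 change 1.86, SE 0.40, limma adjusted p = 0.00144).

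Between controls, 24 h against 4 h, 1 member of 38 was called, against 7.32% of all tested genes (4.28% higher and 3.04% lower). Gpx1 read 608, 714, 238, 346 and 257 FPKM at 24 h, against 291, 244, 233, 238 and 203 FPKM at 4 h (log2 change 0.70, SE 0.20, limma adjusted p = 0.0279), and control libraries 3 and 5 at 24 h lay inside the 4 h range. Without the 3 libraries of high oestrogen-responsive score its log2 change was 0.04. In that fit 3 other members fell, and the share of all tested genes called is not given here. No member was called without control library 3 or 5 at 4 h or without control library 1 or 2 at 24 h, 7 were called without control library 3 at 24 h (14.9% of all tested genes), and 3 without control library 5 at 24 h (9.78%).

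Differences between effects were not detected for any member. The doxorubicin effect at 24 h minus that at 4 h called 0.0123% of tested genes and 0 members, with 4 members at an unadjusted p under 0.05 (Txn1, Txnrd1, Prdx4 and Hmox1) and 0 called by limma-voom. The interaction of doxorubicin and AMH called 0% of tested genes at 4 h and 0% at 24 h, with 4 and 2 members at an unadjusted p under 0.05 and 0 called by limma-voom at both times. At 4 h these 4 members included genes that AMH alone had changed. Gstt1 read 20.4, 30.3, 18.7, 19.4 and 20.9 FPKM with both agents and 35.4, 28.6, 17.1, 24.9 and 24.9 FPKM with doxorubicin, which is lower on average, whereas it rose with AMH alone (interaction -0.98, 95% interval -1.57 to -0.39, limma adjusted p = 0.195). Tkt read 70.1, 51.5, 52.1, 42.4 and 59.95 FPKM with both agents and 47.6, 49.1, 56.5, 57.7 and 56.2 FPKM with doxorubicin (interaction 0.62, 95% interval 0.18 to 1.06, limma adjusted p = 0.224). For Prdx1 the interaction was 0.61 (95% interval 0.06 to 1.16, limma adjusted p = 0.307). In the fit to the 4 groups at 4 h alone, 4 members and 7.65% of all tested genes were called for this interaction.

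Some members were high in the libraries with high scores for neighbouring tissue, whose part in the values was not tested. Gstm2, a mu-class transferase, was at 68.2 to 139 FPKM in 8 of the 9 libraries with a high oviduct and ciliated cell score, which were its 8 highest of 40, and at no more than 56.4 FPKM in the rest. It was called in no comparison. Me1 was at 57.0 and 45.2 FPKM in the 2 libraries with a high adipocyte score, AMH library 1 and doxorubicin library 2 at 24 h, and at no more than 23.3 FPKM elsewhere. Cat, which encodes catalase, had its highest value, 70.6 FPKM, in doxorubicin library 2 at 24 h, and Gpx3 its highest, 149 FPKM, in the same library. In the comparison of doxorubicin with AMH against doxorubicin at 24 h, Me1 read 3.18, 8.37, 3.85, 5.03 and 3.54 FPKM with both agents, against 8.92, 45.2, 7.17, 6.94 and 9.58 FPKM with doxorubicin. It was not called, and doxorubicin library 2 is again the high one (log2 change -1.18, limma adjusted p = 0.347).

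**Figure D5:**
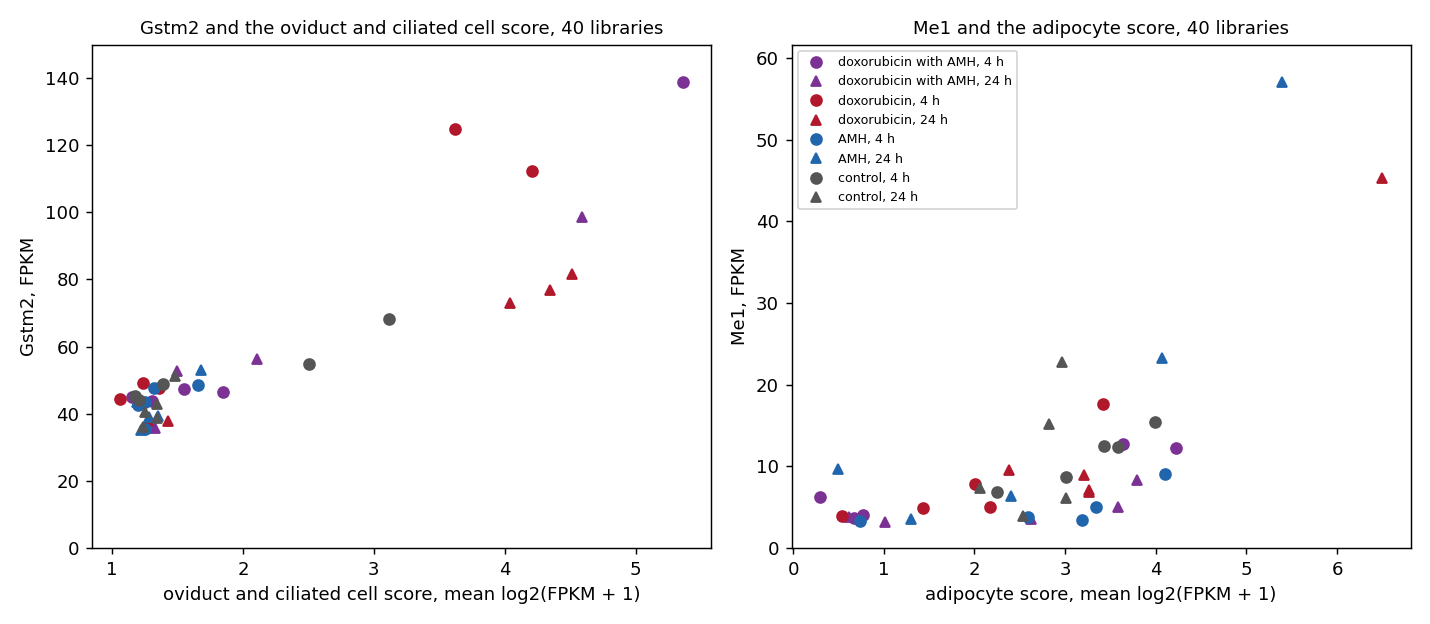
Left, Gstm2 in FPKM against the oviduct and ciliated cell score, and right, Me1 in FPKM against the adipocyte score (mean log2(FPKM + 1) of each list), with 1 point per library. The high Gstm2 points, 68.2 FPKM and up, lie at high oviduct scores, and the 2 high Me1 points, 45.2 and 57.0 FPKM, at the 2 highest adipocyte scores.

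Several members outside the calls are given here by their range over all 40 libraries. Blvrb, biliverdin reductase B, stayed between 8.54 and 16.0 FPKM over all 40 libraries. Prdx6 stayed between 23.4 and 39.5 FPKM, and cytosolic Sod1 between 30.9 and 52.1 FPKM. Mitochondrial Sod2 was at 6.09 to 11.7 FPKM, Gclc at 13.2 to 29.7 FPKM and Gpx4, which protects membranes against lipid peroxides, at 62.5 to 108 FPKM. Of the 38 members, Nfe2l2, Blvrb, Gclc, Gclm, Slc7a11, Prdx4, Prdx5, Prdx6, Gpx4, Gstm2, Sod1, Sod2, Cat and Me1 were called in none of the 12 comparisons.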

How the data were processed

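Total RNA of mouse uteri was extracted with a Qiagen kit and sequenced from Novogene libraries, per the labels. What the authors deposited is a single table with FPKM for 54532 genes in 40 libraries, per the file headers; the build is mm10 per the submitters' processing notes, and for the aligner, counter, annotation release and use of strand, the entry is: not given in the sources used here. FPKM times gene length gave whole reads for 100% of values (tolerance 0.01 reads), 16251563 to 27391049 per library. The depth used in the FPKM values was not this total but 0.859 to 1.06 times it. The ratio was lowest in control libraries 1, 2 and 4 and AMH library 3 at 24 h (0.891, 0.859, 0.938 and 0.935). Its part in the results was not tested. Libraries of the same group all differed by more than sampling noise (chi-square over its degrees of freedom at least 9.006), with Pearson correlations of at least 0.8748.

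From the deposited FPKM, log2(FPKM + 1) was computed, a scale that understates changes of low genes. A gene was tested where 5 or more libraries reached 1 FPKM (16226, of which 13422 protein-coding). limma 3.58.1 with a mean-variance trend (R 4.3.3) was fitted to all 8 groups of 5 with 32 residual degrees of freedom, and Benjamini-Hochberg adjustment ran over all tested genes in each of 12 comparisons, with a threshold of 0.05. Figures used Python 3.11.15 with matplotlib 3.10.9.

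The members and lists were chosen with earlier results of these data known. Full values are given for members called in any comparison, other members by range and counts, and from each further list at most 4 called genes with the smallest p in a comparison. A few members are also given in full although not called; they were chosen after their values were seen. Alternatives were another pseudocount, other filters, median-of-ratios scaling, a fit of only the groups compared, library weights, a replicate block, limma-voom on rebuilt reads and leaving out each library; leaving out the libraries that stood apart was added after seeing the data. Of the 38 members 14 overlap another gene of the table, 6 of them a protein-coding one, and genes with near-identical copies (Gstm1, Gstm2, Gstp1 and genes with processed pseudogenes such as Fth1, Ftl1, Prdx1, Txn1 and Gpx1) are uncertain, since reads may have gone to another copy.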

Additional observations from a re-analysis of the deposited data

Results flagged for a closer look

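Of 304 groups of 5 libraries (38 members in 8 groups), 28 held 1 library far from the other 4, by its gap to the nearest of them relative to the whole range; chance flags about 5% of groups. In 25 the library was high and in 3 low.

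With doxorubicin and AMH at 4 h, library 5, which had the highest oviduct and ciliated cell score, stood high for Gstm1 (266 FPKM), Gstm2 (138.8 FPKM) and Gsta4 (73.25 FPKM), and library 2 for Gstt1 (30.29 FPKM). With doxorubicin and AMH at 24 h, library 4, also of high oviduct score, stood high for Txnrd1 (20.29 FPKM), Prdx1 (127.3 FPKM), Sod2 (10.53 FPKM), G6pdx (40.19 FPKM) and Tkt (59.89 FPKM).

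With doxorubicin at 4 h, library 4, of high oviduct and ovary scores, stood high for Nqo1 (16.48 FPKM) and Me1 (17.65 FPKM). With doxorubicin at 24 h, library 2, which had the highest adipocyte score, stood high for Fth1 (1346 FPKM), Gpx4 (105.6 FPKM), Cat (70.6 FPKM), Pgd (29.14 FPKM) and Me1 (45.24 FPKM) and low for Gclm (6.441 FPKM), and library 4, of high oviduct score, stood high for Prdx5 (52.01 FPKM) and Taldo1 (76.2 FPKM).

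With AMH at 4 h, library 1 stood low for Nqo1 (4.136 FPKM) and library 4 high for Txn1 (81.76 FPKM). With AMH at 24 h, library 3, which had high oestrogen-responsive and ovary scores, stood high for Gsr (57.67 FPKM), Prdx1 (160.9 FPKM) and Prdx3 (74.79 FPKM). Among controls at 4 h, library 5, of high oviduct score, stood high for Nqo1 (13.06 FPKM), library 1 high for Gpx4 (98.91 FPKM) and library 3 low for Txn1 (80.19 FPKM). Among controls at 24 h, library 1, of high oestrogen-responsive score, stood high for Slc7a11 (13.9 FPKM). The part of the cell type scores in these values was not tested.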

How the results depend on the processing

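Counts of members called moved by more than 1.5 times as follows. Fitting only the groups compared gave 0 for doxorubicin at 24 h, 24 for AMH at 4 h, 4 and 1 for doxorubicin with AMH against control at 4 h and 24 h, 0 for control 24 h against 4 h and 4 for the interaction at 4 h. Library weights gave 1 and 23 for doxorubicin at 4 h and 24 h, 6 for AMH added to doxorubicin at 24 h, 24 and 21 for AMH at 4 h and 24 h, 5 for doxorubicin with AMH against control at 4 h, 10 for control time, 5 for the difference of the doxorubicin effects and 4 for the interaction at 4 h. Without a filter doxorubicin at 24 h had 4 calls and control time 0; control time had 2 with a pseudocount of 0.1, 2 with a filter at 5 FPKM and 2 by limma-voom. Without the libraries of high oestrogen-responsive score the counts were 0 for doxorubicin at 24 h, 0 for doxorubicin with AMH at 24 h and 3 for control time; without those of high oviduct score, 4 for doxorubicin at 24 h and 0 for control time; without that of high adipocyte score, 3 for doxorubicin at 24 h; without those of high ovary score, 1 for AMH at 24 h. Leaving out 1 library gave 1 to 18 calls for doxorubicin at 24 h, 6 to 10 for AMH at 4 h, 0 to 14 for AMH at 24 h, 7 to 24 for doxorubicin with AMH at 24 h, 0 to 7 for control time and 0 in every other comparison. The cause was not tested.

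The background moved too, so a count given without its share of all tested genes is not a result about the members. For doxorubicin at 24 h 18.4% of genes were called, against 0.154% with only the groups compared, 42.4% with library weights, 5.19% without a filter and 0.450% without the libraries of high oestrogen-responsive score. For AMH at 4 h it was 20.0%, against 36.3% with only the groups compared and 42.1% with library weights. For doxorubicin with AMH at 24 h it was 34.3%, against 6.28%, 52.7% and 0.733% with only the groups compared, with library weights and without the high-score libraries. Library weights called 3.27% for doxorubicin at 4 h, 12.8% for AMH added to doxorubicin at 24 h, 25.2% for AMH at 24 h, 14.6% for doxorubicin with AMH at 4 h, 19.3% for control time, 6.55% for the difference of the doxorubicin effects and 10.3% for the interaction at 4 h.

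Of 788 alternative values of 38 single-gene results, 611 kept direction and call, 168 kept direction without the call and 9 changed sign, all 9 without the libraries of high oestrogen-responsive score: Gpx1 to 0.0995 and Gstt1 to -0.0661 for doxorubicin at 24 h, and Hmox1 to 0.0355, Ftl1 to 0.0546, Gss to 0.0414, Txn1 to 0.0449, Srxn1 to 0.0583, Gstt1 to -0.0199 and G6pdx to 0.064 for doxorubicin with AMH at 24 h. Prdx1, Gstp1, Gstt1, Taldo1 and Tkt kept their call for AMH at 4 h under every alternative run.

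Replicate numbers are shared between groups. Correlations of same-numbered libraries ranged from -0.715 to 0.388, and in no comparison did every pair pass 0.1. They ran from 0.0537 to 0.251 for doxorubicin with AMH against control at 4 h. For control, 24 h against 4 h, 4 pairs passed 0.1 and the lowest was -0.0126. The samples were treated as unpaired, and whether the numbers mark a shared batch was not tested. With the replicate block AMH at 24 h had 1 call, AMH at 4 h 10 and doxorubicin with AMH at 24 h 20, and the other counts were as without it.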
